A study of Mus musculus with 12 samples.

Results

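The genes described here are 39 cell cycle and DNA replication genes of the mouse, of 42687 gene identifiers counted. They were chosen by name, each matched to its Ensembl identifier. The list holds 23 genes that act in or before S phase (replication members) and 16 genes grouped for their part in G2 and mitosis (mitosis members). Of the latter, Ccna2 also acts in S phase. The list was drawn up with earlier results of these data known, so counts over it are descriptions and not tests. The members were read in the same libraries and are not independent observations. All 39 had enough reads to be tested. Their lowest count in any library was 247.

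The cells were DC2.4, an established mouse line labelled as a dendritic cell line with a WT genotype, and mRNA was sequenced in 12 libraries, 3 per group. Control cells received PBS, a saline buffer. The other groups received 15 µg/mL of extracellular vesicles labelled ATEV, 30 µg/mL of vesicles labelled NTEV, or 15 µg/mL of ATEV pretreated with Baseline-ZERO DNase, an enzyme that degrades DNA (called DNase-ATEV here). ATEV and NTEV are vesicles shed by activated and by non-activated T cells. Cells of every group were harvested the day after treatment and seeded again, and the labels put the number of repeats of this procedure at 3. Whether libraries of 1 group stem from separate cultures is not in the labels. The p-values therefore set a difference between groups against the spread between these libraries only, which may be technical variation.

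Proliferating cells copy their DNA in S phase and divide it in mitosis, and the genes of each step are transcribed in waves. E2F transcription factors, held back by retinoblastoma proteins until a cell commits to division, drive the genes of origin licensing, the replicative helicase and nucleotide supply. The mitotic wave peaks later and depends on the MuvB complex with B-MYB and FOXM1, which act at an element called the CHR (cell cycle genes homology region), often together with NF-Y at CCAAT boxes. An immortalised line such as DC2.4 cycles in culture, so transcripts of both waves are present in an unsorted population. In such bulk samples, fewer cells in a phase and less RNA per cell cannot be told apart.

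Promoter sequences were taken from RefSeq (build GRCm38.p6) for 33 of the 39 genes, which have 36 listed promoters, and the 250 bases before each transcription start were searched on both strands. An E2F core was any of TTCCCGC or TTCGCGC or TTGGCGC or TTGCCGC, and the CHR was TTTGAA or TTCGAA. E2F cores stood in 10 of 22 promoters of replication members (45.5%), in 3 of 14 promoters of mitosis members (21.4%) and in 7.89% of all 32851 promoters. A CHR stood in 50.0% of the mitosis promoters, in 18.2% of the replication promoters and in 17.1% of all promoters. CCAAT boxes were found in 85.7%, 68.2% and 33.8%, and both a CHR and a CCAAT box in 50.0%, 18.2% and 6.02%. These are matches of letters in a window, not measured binding. The 5 promoters below are shown because Bub1b, Cenpe and Kif11 were the members called lower with ATEV, Mcm6 had more E2F core matches than any other member, and E2f2 was the only member whose ATEV libraries all lay above PBS. Capitals mark the matches.
Bub1b, chr2:118597961-118598210, plus strand: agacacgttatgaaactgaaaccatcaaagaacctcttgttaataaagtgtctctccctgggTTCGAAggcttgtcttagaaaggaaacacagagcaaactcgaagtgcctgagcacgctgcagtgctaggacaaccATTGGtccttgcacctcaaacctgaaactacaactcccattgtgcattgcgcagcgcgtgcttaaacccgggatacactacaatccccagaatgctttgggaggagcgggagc
Kif11, chr19:37376132-37376381, plus strand: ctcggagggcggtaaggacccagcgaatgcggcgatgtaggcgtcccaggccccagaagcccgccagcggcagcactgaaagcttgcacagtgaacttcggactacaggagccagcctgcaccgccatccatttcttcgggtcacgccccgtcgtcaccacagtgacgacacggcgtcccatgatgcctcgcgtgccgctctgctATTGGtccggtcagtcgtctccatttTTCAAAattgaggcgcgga
Cenpe, chr3:135212313-135212562, plus strand: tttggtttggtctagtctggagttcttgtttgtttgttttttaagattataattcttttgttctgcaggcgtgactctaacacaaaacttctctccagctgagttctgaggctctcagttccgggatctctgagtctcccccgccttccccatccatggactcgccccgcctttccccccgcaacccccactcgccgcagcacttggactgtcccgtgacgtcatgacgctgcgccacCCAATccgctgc
Mcm6, chr1:128359706-128359955, minus strand: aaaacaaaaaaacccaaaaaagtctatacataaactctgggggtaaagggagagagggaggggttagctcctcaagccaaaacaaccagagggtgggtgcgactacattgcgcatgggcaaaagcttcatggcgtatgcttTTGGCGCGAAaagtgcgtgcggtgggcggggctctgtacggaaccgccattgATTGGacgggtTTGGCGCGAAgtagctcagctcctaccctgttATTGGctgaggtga
E2f2, chr4:136172024-136172273, plus strand: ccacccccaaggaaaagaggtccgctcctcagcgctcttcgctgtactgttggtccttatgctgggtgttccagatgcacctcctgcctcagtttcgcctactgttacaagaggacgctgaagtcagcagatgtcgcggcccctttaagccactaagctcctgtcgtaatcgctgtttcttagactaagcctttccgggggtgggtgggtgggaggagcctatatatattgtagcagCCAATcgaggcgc
Bub1b and Kif11 each held 1 CHR and 1 CCAAT box, and Cenpe a CCAAT box alone. In Mcm6, 4 E2F core matches formed 2 sites, each with TTGGCGC as written and GCGCGAA, the reverse complement of TTCGCGC, overlapping it, and the promoter also held 2 CCAAT boxes. The E2f2 promoter shown held 1 CCAAT box and no E2F core, and a further promoter listed for E2f2 is not shown.

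Before the comparisons, the libraries themselves need describing. On the first principal component of all tested genes (34.9% of the variance), NTEV 1 (-21.5) and DNase-ATEV 1 (-30.4) lay among the PBS libraries (-41.8, -28.4 and -14.6), while the other treated libraries lay between 4.41 and 41.7. The cell cycle genes followed the same split. The level of the 6 MCM helicase genes, as log2 CPM (counts divided by TMM-scaled library sizes in units of 1e6) minus each gene's mean over the 12 libraries, was 0.51, 0.38 and 0.19 in PBS 1 to 3, and 0.46 in NTEV 1 and 0.49 in DNase-ATEV 1. It lay at -0.44, -0.24 and -0.23 with ATEV, at -0.50 and -0.12 in NTEV 2 and 3, and at -0.13 and -0.37 in DNase-ATEV 2 and 3. For all 23 replication members the same measure was 0.34 in NTEV 1 and 0.35 in DNase-ATEV 1 against -0.48 and -0.09, and -0.10 and -0.34, in the other libraries of those groups. In PBS it was 0.31, 0.24 and 0.17. The ATEV libraries also differed in it, at -0.41, -0.06 and 0.06. On the second component (19.5% of the variance) ATEV 2 and 3 (27.9 and 48.3) lay apart from ATEV 1 (-2.03). The cause of these splits between libraries of 1 group was not tested, nor was whether the labels of NTEV 1 and DNase-ATEV 1 are right. Every value of NTEV and DNase-ATEV below takes the labels as given.

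**Figure D1:**
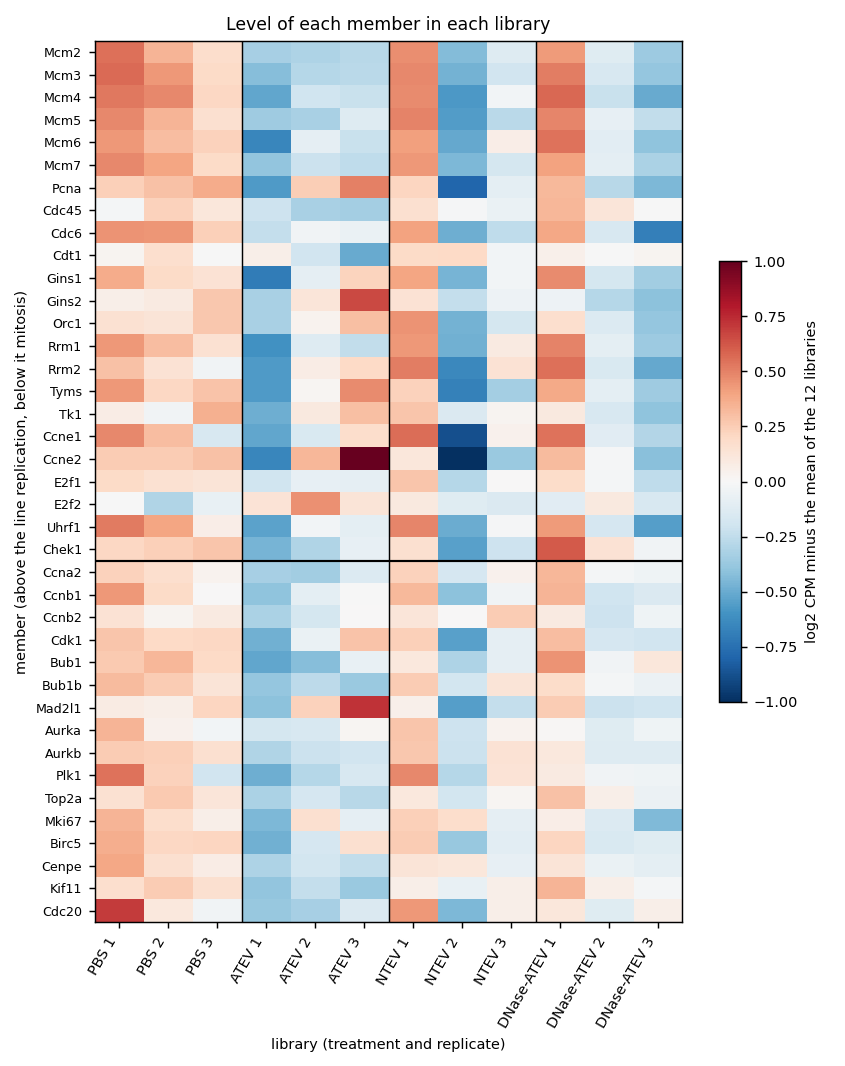
Level of each of the 39 members (vertical axis; replication members above the line, mitosis members below) in each of the 12 libraries (horizontal axis), as log2 CPM minus the gene's mean over the libraries, with colours limited to the range of the scale. NTEV 1 and DNase-ATEV 1 share the high levels of the PBS libraries, with means over the replication members of 0.34 and 0.35.

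ATEV against PBS compares cells given vesicles of activated T cells with cells given buffer. Most members had lower levels with ATEV, and 3 of them passed the test, all genes of mitosis. Bub1b, Cenpe and Kif11 fell by 0.58, 0.46 and 0.53 on the log2 scale (edgeR quasi-likelihood test, adjusted p = 0.0277, 0.0453 and 0.0291). Of all 13261 genes tested, 1.42% were called lower. None of the 23 replication members passed. An unadjusted p under 0.05 in edgeR was found for 10 of them, and for 3557 of all 13261 genes. DESeq2 called 10 members lower, 4 of replication and 6 of mitosis (4.98% of all genes), and limma-voom called 3. With the replicate number as a block, edgeR called 9 (4.82% of all genes). In all, 35 of 39 members had a fold change below 0, against 46.7% of all genes, and the median log2 fold change was -0.38 for the replication members and -0.42 for the mitosis members, against 0.03 for all genes.

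The spindle checkpoint and the mitotic motors held the members that passed. Bub1b (ENSMUSG00000040084) encodes BubR1, a checkpoint protein that holds back the anaphase-promoting complex until chromosomes are attached. Its level was 262, 251 and 230 CPM in PBS 1 to 3, 161, 175 and 162 with ATEV, 251, 185 and 230 with NTEV and 238, 207 and 202 with DNase-ATEV. The ATEV libraries were all below those of the other groups, and the mean was 166 ± 8.15 against 247 ± 16.1 CPM in PBS (SD, n = 3). Kif11 (ENSMUSG00000012443), the kinesin that pushes spindle poles apart, stood at 365, 386 and 363 CPM in PBS, 247, 275 and 250 with ATEV, 337, 308 and 337 with NTEV and 409, 337 and 320 with DNase-ATEV. Again no ATEV library reached the lowest library of another group, and the SE of its fold change was 0.12. Cenpe (ENSMUSG00000045328), a kinesin of the kinetochore that carries chromosomes to the spindle equator, had 141, 121 and 114 CPM in PBS, 87.1, 95.3 and 90.9 with ATEV, 118, 117 and 102 with NTEV and 118, 103 and 101 with DNase-ATEV. Its NTEV and DNase-ATEV libraries lay between those of ATEV and PBS or within PBS. These calls rested on few libraries: none of the 3 was called without any 1 of the 3 PBS libraries, any 1 of the 3 ATEV libraries or NTEV 3. Over the fits that left out 1 library the adjusted p reached 0.123 for Bub1b, 0.140 for Kif11 and 0.196 for Cenpe in edgeR, with the same direction in each.

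**Figure D2:**
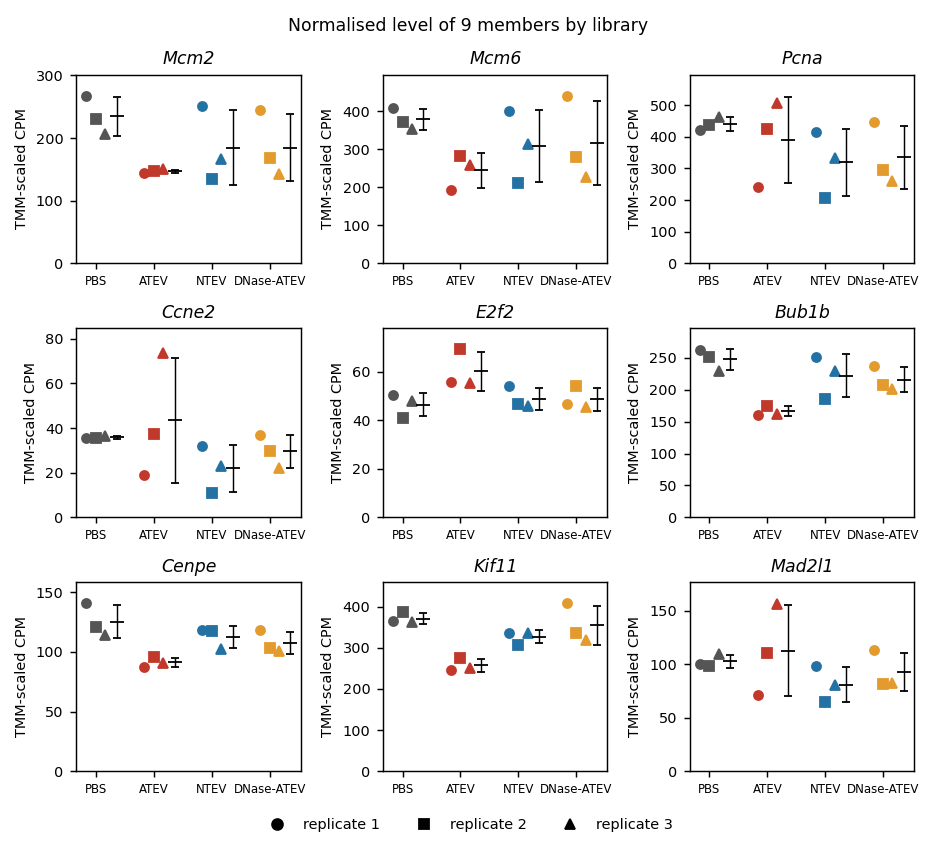
TMM-scaled CPM (vertical axis, from 0) of 9 members in each library, by group (horizontal axis); marker shapes give the replicate number, and the bar beside each group is its mean with the SD of 3 libraries. Bub1b, Kif11 and Cenpe have all ATEV libraries below all others, whereas Pcna, Ccne2 and Mad2l1 have ATEV 3 above every PBS library.

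The other checkpoint members did not pass. Bub1, the kinase that recruits checkpoint proteins to kinetochores, was at 187, 197 and 179 CPM in PBS, 109, 116 and 148 with ATEV, 168, 126 and 147 with NTEV and 213, 152 and 169 with DNase-ATEV. Its ATEV and PBS libraries did not overlap, and the log2 fold change was -0.59 ± 0.16 (SE, edgeR adjusted p = 0.0514). Mad2l1, which sequesters the activator Cdc20, was at 100, 98.4 and 110 CPM in PBS but at 71.2, 111 and 156 with ATEV, a spread wider than any difference between the groups (log2 fold change 0.13 ± 0.24, edgeR adjusted p = 0.746). Cdc20, the activator itself, had -0.57 ± 0.22 with no overlap (edgeR adjusted p = 0.125).

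Among the mitotic cyclins, kinases and chromosome proteins, no member passed. Ccna2, a cyclin of S phase and early mitosis, was at 133, 127 and 116 CPM in PBS, 90.0, 89.2 and 103 with ATEV, 133, 101 and 117 with NTEV and 143, 112 and 110 with DNase-ATEV. Ccnb1, the cyclin that takes cells into mitosis, was at 291, 246 and 216 CPM in PBS, 163, 202 and 215 with ATEV, 270, 162 and 211 with NTEV and 273, 188 and 195 with DNase-ATEV. Cdk1, the kinase both cyclins bind, was at 191, 181 and 182 CPM in PBS, 113, 150 and 192 with ATEV, 186, 108 and 148 with NTEV and 195, 140 and 138 with DNase-ATEV. For both cyclins the ATEV libraries lay below PBS (log2 fold changes -0.42 and -0.38, edgeR adjusted p = 0.0915 and 0.243), while for Cdk1 ATEV 3 was above all PBS libraries (-0.28, edgeR adjusted p = 0.409). Aurkb, the kinase of the chromosomal passenger complex, was at 159, 157 and 149 CPM in PBS, 108, 115 and 117 with ATEV, 161, 115 and 147 with NTEV and 143, 122 and 122 with DNase-ATEV. Top2a, the topoisomerase that untangles sister chromatids, was at 561, 604 and 548 CPM in PBS, 405, 450 and 416 with ATEV, 542, 445 and 511 with NTEV and 618, 526 and 486 with DNase-ATEV. ATEV and PBS were separate in both genes, and neither passed (edgeR adjusted p = 0.0620 and 0.0705). With 1 library left out the edgeR adjusted p reached 0.203 for Aurkb and 0.236 for Top2a. Mki67, which encodes the proliferation marker Ki-67, was at 537, 480 and 441 CPM in PBS, 310, 473 and 398 with ATEV, 499, 478 and 399 with NTEV and 444, 385 and 312 with DNase-ATEV, so that ATEV 2 lay inside the PBS range. The remaining members, Ccnb2, Aurka, Plk1 and Birc5, had log2 fold changes from -0.53 to -0.23.

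The replicative helicase was the replication group with the lowest median in this comparison, at -0.66. Its 6 subunits, Mcm2 to Mcm7, form a ring that is loaded at origins in G1 and unwinds DNA at the fork. Mcm2 was at 267, 231 and 206 CPM in PBS, 145, 147 and 150 with ATEV, 251, 135 and 167 with NTEV and 245, 168 and 142 with DNase-ATEV. Mcm3 was at 314, 286 and 242 CPM in PBS, 158, 174 and 176 with ATEV, 295, 153 and 186 with NTEV and 302, 190 and 162 with DNase-ATEV. Mcm7 was at 314, 295 and 257 CPM in PBS, 171, 193 and 188 with ATEV, 304, 164 and 199 with NTEV and 296, 210 and 180 with DNase-ATEV. In each the 3 ATEV libraries lay close together below PBS, whereas NTEV and DNase-ATEV each held 1 library within the PBS range and 2 below it. Mcm4 was at 262, 253 and 210 CPM in PBS, 127, 158 and 156 with ATEV, 252, 122 and 178 with NTEV and 270, 156 and 128 with DNase-ATEV. Mcm5 was at 323, 292 and 258 CPM in PBS, 181, 185 and 211 with ATEV, 326, 157 and 192 with NTEV and 325, 218 and 195 with DNase-ATEV. Mcm6 was at 408, 373 and 354 CPM in PBS, 192, 283 and 258 with ATEV, 400, 212 and 315 with NTEV and 439, 281 and 228 with DNase-ATEV. All 6 subunits thus had every ATEV library below every PBS library. Their log2 fold changes ran from -0.73 (Mcm3) to -0.60 (Mcm5) with SEs of 0.22 to 0.27, and their edgeR adjusted p from 0.0945 (Mcm2) to 0.147 (Mcm5), so that none passed.

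All libraries of NTEV and DNase-ATEV enter the estimate of spread used for ATEV against PBS. When only the PBS and ATEV libraries were fitted, 13 members were called lower in edgeR, against 4.04% of all genes. They were the 6 MCM genes, Cdc6, Rrm1, Chek1, Bub1, Bub1b, Aurkb and Kif11. Without NTEV 1 the count was 8 (Mcm2, Mcm3, Mcm7, Bub1, Bub1b, Aurkb, Cenpe and Kif11; 3.93% of all genes), the highest of the fits that left out 1 library. The count was 0 without any 1 PBS library, ATEV 1, ATEV 2 or NTEV 3 (0.140% to 1.62% of all genes). It was 1 without ATEV 3 (0.289%). Without both NTEV 1 and DNase-ATEV 1 it was 17, of which 10 were replication members (6.60% of all genes). This last setting was chosen after the data were seen, and it leaves out libraries picked for standing apart in these genes, which narrows the spread by construction. NTEV 1 is 1 of these libraries, so the count of 8 carries the same limit.

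Other members of the fork and its licensing varied more. Cdc45, which joins the MCM ring to form the active helicase, was at 81.6, 96.9 and 89.6 CPM in PBS, 71.5, 66.1 and 65.4 with ATEV, 92.4, 82.2 and 79.1 with NTEV and 104, 90.1 and 82.5 with DNase-ATEV. ATEV lay below every other library, and of the replication members Cdc45 had the smallest p (log2 fold change -0.40 ± 0.12, edgeR adjusted p = 0.0704). Pcna, the sliding clamp of the DNA polymerases, was at 421, 438 and 463 CPM in PBS, 241, 424 and 507 with ATEV, 416, 207 and 334 with NTEV and 448, 295 and 262 with DNase-ATEV. Its ATEV libraries spread on both sides of PBS. Whether reads of Pcna are shared with a processed pseudogene was not tested. Of the GINS subunits, which complete the active helicase, Gins2 was at 33.8, 34.6 and 39.2 CPM in PBS and at 26.0, 35.4 and 51.2 with ATEV, and Gins1 had a log2 fold change of -0.38 with overlap. The licensing factors Orc1, Cdc6 and Cdt1 had -0.16, -0.49 and -0.26, with separate groups for Cdc6 alone. Among the nucleotide enzymes, the ribonucleotide reductase subunit Rrm1 had -0.61 with no overlap, while Rrm2, thymidylate synthase (Tyms) and thymidine kinase (Tk1) had -0.20, -0.28 and -0.14 with overlap. Chek1, the kinase that guards stalled forks, was at 31.8, 32.4 and 33.3 CPM in PBS, 19.9, 22.3 and 26.0 with ATEV, 30.8, 18.9 and 23.9 with NTEV and 42.2, 30.4 and 26.9 with DNase-ATEV. No ATEV library of Chek1 reached a PBS library (log2 fold change -0.51, edgeR adjusted p = 0.125), and Uhrf1, which maintains DNA methylation behind the fork, had -0.54 with no overlap.

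The regulators of entry into S phase differed in direction. Ccne1, a cyclin that with Cdk2 starts S phase, was at 113, 100 and 72.3 CPM in PBS, 56.5, 72.9 and 91.2 with ATEV, 119, 44.0 and 83.3 with NTEV and 118, 74.6 and 66.0 with DNase-ATEV. Its relative Ccne2 was at 35.5, 35.5 and 36.4 CPM in PBS, 18.9, 37.5 and 73.8 with ATEV, 32.1, 11 and 23.0 with NTEV and 37.1, 29.5 and 22.3 with DNase-ATEV. The 3 ATEV libraries differed more in Ccne2 than the groups did, with an SD of 27.9 CPM against 0.512 in PBS. E2f1, an activator of S phase genes, was at 111, 108 and 106 CPM in PBS, 84.7, 91.5 and 91.4 with ATEV, 118, 79.5 and 97.3 with NTEV and 110, 95.7 and 81.3 with DNase-ATEV. Its relative E2f2 was at 50.4, 41.1 and 48.1 CPM in PBS, 55.8, 69.4 and 55.4 with ATEV, 54.2, 46.6 and 45.8 with NTEV and 46.9, 54.2 and 45.3 with DNase-ATEV. The 2 activators thus differed in sign: the log2 fold change was -0.28 ± 0.15 for E2f1 (edgeR adjusted p = 0.229) and 0.37 ± 0.13 for E2f2 (edgeR adjusted p = 0.110), and neither passed. E2f2 was also above every NTEV and DNase-ATEV library with ATEV (log2 fold changes 0.30 and 0.30, edgeR adjusted p = 0.355 and 0.304).

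Counted over members, the ATEV libraries lay wholly below PBS in 12 of 23 replication and 11 of 16 mitosis members, against 16.8% of all genes, and wholly above in E2f2 alone, against 16.3%. Library by library, ATEV 1 was below the lowest PBS library in 21 of 23 replication and 16 of 16 mitosis members, ATEV 2 in 16 and 14, and ATEV 3 in 13 and 12. The share of all genes below the lowest PBS library was 35.1%, 34.9% and 35.3% in these libraries. Above the highest PBS library were 1 of 23 replication members in ATEV 1, 2 in ATEV 2 and 6 in ATEV 3, against 36.7%, 36.9% and 36.5% of all genes.

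**Figure D3:**
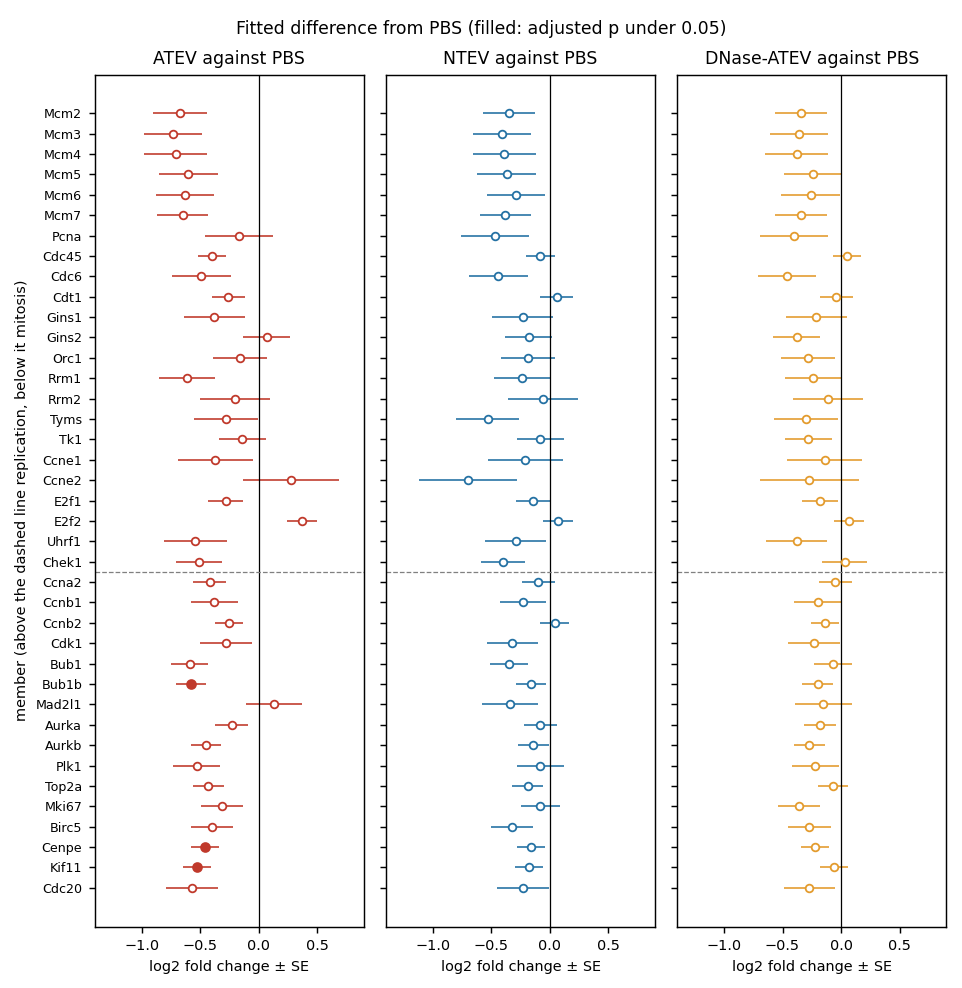
Fitted log2 fold change (horizontal axis) with its SE for each of the 39 members (vertical axis) against PBS, for ATEV, NTEV and DNase-ATEV; filled points have an adjusted p under 0.05. Filled points are Bub1b, Cenpe and Kif11 with ATEV, and the medians of the replication members are -0.38, -0.29 and -0.27 from left to right.

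The comparison of DNase-ATEV with PBS shows what was measured once vesicle DNA had been exposed to the enzyme. edgeR called 0 of 39 members (0% of all genes), and DESeq2 and limma-voom called 0 as well. An unadjusted p under 0.05 in edgeR was found for 0 members, against 791 of all 13261 genes. A fold change below 0 was found in 36 of 39 members, against 49.5% of all genes. The median log2 fold change was -0.27 for the replication and -0.20 for the mitosis members. Members whose DNase-ATEV libraries all lay below PBS were Gins2 (-0.38) and Aurkb (-0.27), 2 of 39 against 5.68% of all genes. DNase-ATEV 1 was below the lowest PBS library in 1 of 23 replication and 1 of 16 mitosis members (23.2% of all genes), whereas DNase-ATEV 2 was below it in 20 and 15 (31.4%) and DNase-ATEV 3 in 20 and 14 (32.9%). Without DNase-ATEV 1 the medians were -0.51 and -0.30. Without DNase-ATEV 3 the median of the replication members was -0.10, and without PBS 1 that of the mitosis members was -0.09.

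The comparison of NTEV with PBS gave a like picture with a different library apart. edgeR called 0 of 39 members, against 2.31% of all genes in either direction, and DESeq2 and limma-voom called 0. Bub1 alone had an unadjusted p under 0.05 in edgeR (log2 fold change -0.35, adjusted p = 0.250), against 2534 of all 13261 genes. A fold change below 0 was found in 36 of 39 members, against 50.3% of all genes, with the same PBS libraries as in the other comparisons with PBS. The medians were -0.29 for the replication and -0.17 for the mitosis members. The 3 NTEV libraries lay wholly below PBS in 7 of 39 members (Pcna, Ccne2, Chek1, Bub1, Mad2l1, Top2a and Kif11), against 11.1% of all genes. NTEV 1 was below the lowest PBS library in 3 of 23 replication and 4 of 16 mitosis members (26.1% of all genes), NTEV 2 in 20 and 14 (38.2%) and NTEV 3 in 19 and 11 (32.9%). Without NTEV 1 the medians were -0.56 and -0.24, and Mcm5 and Mcm7 were called lower (edgeR adjusted p = 0.0359 and 0.0405, against 4.57% of all genes). NTEV 1 stood apart from NTEV 2 and 3 in these genes, so leaving it out narrows the spread by construction. Without NTEV 2 the medians were -0.09 and -0.10, and without PBS 1 that of the mitosis members was -0.10. NTEV was given at a different vesicle dose from ATEV, so dose and vesicle type cannot be told apart between them. The labels equate a dose with an amount of vesicle DNA, without saying whether both vesicle types were matched on it.

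ATEV against DNase-ATEV compares the same vesicles with and without the DNase step. edgeR called 0 of 39 members, against 1.46% of all genes. An unadjusted p under 0.05 was found for 9 members, and for 2012 of all 13261 genes. DESeq2 called Cdc45 and Kif11 lower with ATEV (1.03% of all genes), and limma-voom called 0. In edgeR, Kif11 had a log2 fold change of -0.46 ± 0.12 (adjusted p = 0.0915) and Cdc45 -0.45 ± 0.12 (adjusted p = 0.100). ATEV lay wholly below DNase-ATEV in 2 replication members (Cdc45 and Chek1) and 9 mitosis members (Ccna2, Bub1, Bub1b, Aurkb, Plk1, Top2a, Cenpe, Kif11 and Cdc20), against 10.0% of all genes. It lay wholly above in E2f2, against 10.1%. The MCM genes, by contrast, overlapped in all 6 subunits, at -0.37 to -0.31. The median was -0.17 for the replication members, which turned to 0.07 without DNase-ATEV 1 and was -0.07 without ATEV 1 and -0.33 without DNase-ATEV 3. For the mitosis members it was -0.21, and -0.13 without DNase-ATEV 1.

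ATEV against NTEV had 0 of 39 members called in edgeR, against 0.935% of all genes, and 0 in DESeq2 and limma-voom. An unadjusted p under 0.05 in edgeR was found for 11 members, and for 1775 of all 13261 genes. The smallest p belonged to Bub1b (log2 fold change -0.42 ± 0.13, edgeR adjusted p = 0.198). Cdc45, Ccnb2, Bub1b, Cenpe and Kif11 had all ATEV libraries below all NTEV libraries, 5 of 39 against 7.16% of all genes, and E2f2 all above, against 8.61%. Ccne2 had the largest fold change of the members in this comparison, at 0.97 ± 0.42, with overlapping groups. The median of the replication members was -0.15 and turned to 0.09 without NTEV 1. It was -0.02 without ATEV 1, -0.28 without ATEV 3 and -0.33 without NTEV 2. The median of the mitosis members was -0.26, and -0.17 without NTEV 1. NTEV against DNase-ATEV had 0 of 39 members called in edgeR, against 0.679% of all genes, and 0 in DESeq2 and limma-voom. Chek1 alone had an unadjusted p under 0.05 in edgeR (log2 fold change -0.43, adjusted p = 0.386), against 1625 of all 13261 genes. No member separated these groups, against 7.74% of all genes lower and 8.45% higher, and the medians were -0.01 and 0.01. These medians near 0 depended on single libraries: the replication median was -0.25 without NTEV 1, 0.16 without NTEV 2, 0.25 without DNase-ATEV 1, -0.11 without DNase-ATEV 2 and -0.19 without DNase-ATEV 3, and the mitosis median ran from -0.14 (without NTEV 1) to 0.11 (without NTEV 2).

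A test of any difference among the 4 groups called 0 of 39 members in edgeR, against 3.50% of all genes. Kif11 had the smallest adjusted p, 0.0759, followed by Bub1b at 0.0885. DESeq2 called 6 of 39 members (Cdc45, Bub1, Bub1b, Top2a, Cenpe and Kif11), against 11.7% of all genes.

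Further genes of the same processes were read from lists outside the 39. Of 44 other replication genes, 1 was called with ATEV against PBS, against 1.42% of all genes called lower. It was Pola1, the catalytic subunit of the priming polymerase, which fell by 0.77 on the log2 scale (edgeR adjusted p = 0.0321). It stood at 100, 106 and 95.8 CPM in PBS, 57.3, 61.7 and 58.2 with ATEV, 93.2, 71.3 and 71.3 with NTEV and 111, 77.7 and 61.8 with DNase-ATEV. The median of this list was -0.32. Of 44 other mitosis genes 2 were called, the checkpoint kinase Ttk and the cytokinesis scaffold Anln, against the same 1.42% of all genes. They fell by 0.65 and 0.51 (edgeR adjusted p = 0.0392 and 0.0314), and the median of the list was -0.34. Ttk was at 57.4, 55.9 and 48.4 CPM in PBS and at 32.5, 32.6 and 38.0 with ATEV, and Anln at 180, 177 and 166 and at 125, 120 and 121. In no other pair of groups was a gene of these 2 lists called in edgeR, against 0% to 2.31% of all genes in either direction.

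Of 35 G1 regulators and cell cycle inhibitors, 32 were tested. With ATEV against PBS 0 were called in edgeR, against 4.74% of all genes. An unadjusted p under 0.05 was found for 8 of them, and for 3557 of all 13261 genes. The median was 0.00, but the list pools drivers and inhibitors of division, and single genes ran from -0.60 to 1.09. ATEV lay wholly below PBS in 6 of them (18.8%) and wholly above in 2, against 16.8% and 16.3% of all genes. Cdkn1a, an inhibitor of cyclin-dependent kinases, was at 218, 258 and 277 CPM in PBS, 439, 309 and 277 with ATEV, 240, 361 and 413 with NTEV and 164, 293 and 375 with DNase-ATEV. NTEV 1 and DNase-ATEV 1, the libraries with MCM levels like PBS, had the lowest Cdkn1a of their groups. A link between Cdkn1a and the split of these libraries was not tested. Cdkn1a did not pass in any of the 6 comparisons (log2 fold change 0.44 ± 0.28 with ATEV against PBS, edgeR adjusted p = 0.315). Skp2, part of a ubiquitin ligase that degrades such inhibitors, was at 54.3, 61.6 and 77.0 CPM in PBS, 41.0, 41.8 and 48.2 with ATEV, 43.8, 35.4 and 38.0 with NTEV and 51.9, 50.2 and 38.4 with DNase-ATEV. It fell by 0.72 with NTEV against PBS (edgeR adjusted p = 0.0343), the only call of this list there, against 0.611% of all genes called lower. With ATEV against PBS the log2 fold change of Skp2 was -0.56 (edgeR adjusted p = 0.0583). The G1 cyclin Ccnd1 (log2 fold change 0.04 ± 0.25) and the growth regulator Myc (0.43 ± 0.42) did not pass with ATEV against PBS. With NTEV against PBS, Myc had 1.33 ± 0.41 with all libraries higher (edgeR adjusted p = 0.110), at low means of 4.06 against 1.60 CPM.

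**Figure D4:**
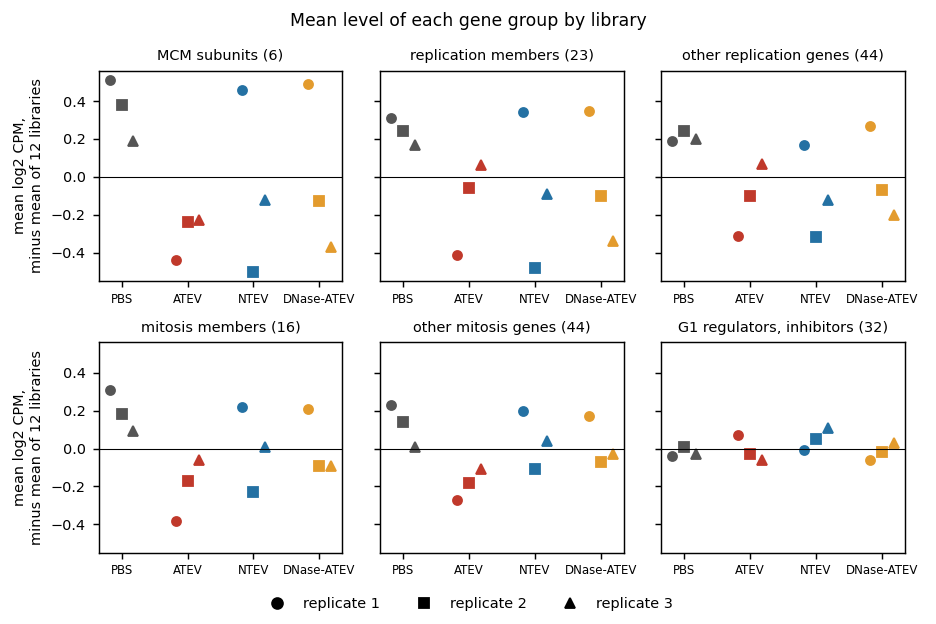
Mean level of 6 gene groups in each library (vertical axis: log2 CPM minus each gene's mean over 12 libraries, averaged over the genes of the group; horizontal axis: treatment), with marker shapes for the replicate number. The MCM genes in NTEV 1 and DNase-ATEV 1 stand at 0.46 and 0.49, with the PBS libraries. The mean of the G1 list, which pools drivers and inhibitors, lies between -0.06 and 0.11 in all libraries.

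Both waves of genes were also compared within each library. The replication level minus the mitosis level was 0.00, 0.06 and 0.08 in PBS, -0.02, 0.11 and 0.12 with ATEV, 0.12, -0.25 and -0.10 with NTEV and 0.15, 0.00 and -0.25 with DNase-ATEV. In ATEV 1 both waves were low (-0.41 and -0.38), and in NTEV 2 the replication members were lower (-0.48) than the mitosis members (-0.23). The libraries of NTEV and DNase-ATEV thus spread more than those of PBS or ATEV, with SDs of 0.18 and 0.20 against 0.04 and 0.08.

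The labelled cell type was read against its markers. Summed CPM of 10 dendritic cell markers was 468 to 528 in PBS, 583 to 695 with ATEV, 477 to 571 with NTEV and 538 to 677 with DNase-ATEV, but Flt3 had at most 3 counts in a library and the class II genes H2-Aa and H2-Ab1 at most 9 and 17. Of these 10 markers 6 were tested, and 2, Itgax and Irf8, were higher with ATEV against PBS in edgeR (log2 fold changes 1.29 and 0.55), as was Itgax with NTEV against PBS (1.32). Summed CPM of 9 macrophage markers was 3578 to 4160 in PBS, 4910 to 7801 with ATEV, 5090 to 5763 with NTEV and 3431 to 3699 with DNase-ATEV. Lyz2 had the most counts of the 9 in every library, with 30933 to 43743 in PBS, 57336 to 102110 with ATEV and 63756 to 73281 with NTEV. In edgeR 3 of 9 (Lyz2, Fcgr1 and Itgam) were higher with ATEV against PBS (1.22, 0.73 and 0.51), as was Itgam with NTEV against PBS (0.54). With NTEV against PBS Lyz2 did not pass (0.78, edgeR adjusted p = 0.0985), and 4 of 9 had a fold change below 0. Between the vesicle groups, Irf8 and Lyz2 were higher with ATEV than with DNase-ATEV (0.70 and 1.51), Fcgr1 was higher with ATEV than with NTEV (1.27), and Cd74 was lower with NTEV than with DNase-ATEV (-1.11). The 13 T cell markers, those of the vesicles' source, summed to 60.1 to 103 CPM in PBS, 44.7 to 63.7 with ATEV, 36.2 to 53.9 with NTEV and 55.8 to 62.3 with DNase-ATEV, with Cd3e, Cd8a, Trbc1 and Trbc2 at 0 in every library. Most of each sum was Cd28, at 50.9, 70.9 and 94.6 CPM in PBS, 43.5, 44.9 and 33.6 with ATEV, 26.6, 41.4 and 35.2 with NTEV and 47.5, 48.1 and 37.9 with DNase-ATEV. Cd28 was lower with ATEV and with NTEV against PBS (log2 fold changes -0.83 and -1.07, edgeR adjusted p = 0.0488 and 0.0266), while the other tested T cell markers, Lck and Cd5, had 0.61 and 0.71 with ATEV and did not pass. B cell markers summed to at most 0.474 CPM and fibroblast markers to at most 3.07. The part of these marker changes in the cell cycle results was not tested.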

How the data were processed

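Deposited values were whole-number counts per Ensembl gene identifier, which the authors made by a counting step not given in the sources used here. Per the labels' protocols, total RNA was made into stranded mRNA libraries. Per the submitters' processing notes, bcl2fastq 2.19, TopHat2 2.0.11, TopHat and Cufflinks 2.1.1 were used with the build mm9, with no role given for each. Annotation and strand setting of the counts are not given in the sources used here. Reads of overlapping or antisense genes therefore cannot be told apart. Symbols were found for 42250 of 42687 identifiers and not for 437.

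Counts summed to 19.4 to 30.4 M per library. Genes passing filterByExpr in edgeR 4.0.16 (minimum count 10, minimum total 15) were scaled by TMM and fitted with the quasi-likelihood model over all 4 groups, in R 4.3.3. The 6 pairs of groups and the test of any difference were each adjusted by Benjamini-Hochberg over 13261 genes, with 0.05 as the threshold for a call. Fold changes are log2 with their SE. Every pair of replicates differed beyond sampling noise (chi-square per degree of freedom 13.6 to 119), so none was counted as 1 library, and the spread between replicates, not counting error, limits precision (biological coefficient of variation 0.183).

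The members and the other gene lists were chosen with earlier results of these data known. All 39 members are named. Values by library are given for members called in any comparison, for the 6 of each wave with the smallest p over the 4 groups and for carriers of each role, and in part for Gins2 and Mad2l1, picked after their values were seen. Of the other lists, called genes and Cdkn1a, Ccnd1 and Myc are named.

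Alternatives were other scalings and filters, DESeq2 1.42.0, limma-voom (limma 3.58.1), fits of only the groups compared, a replicate block and leaving out each library. Replicate numbers are shared between groups in the labels. Deviations of libraries with the same number correlated above 0.1 in all 3 pairs for NTEV with DNase-ATEV alone (0.62, 0.35 and 0.13). The 0.62 is that of NTEV 1 with DNase-ATEV 1, which also correlated with PBS 1 (0.52 and 0.44). Whether the numbers pair these groups is thus open, and the main fit left them unpaired.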

Additional observations from a re-analysis of the deposited data

How the results depend on the processing

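For ATEV against PBS the count of members called, 3, became 5 with no scaling (1.38% of all genes lower), 7 with no filter on low counts (1.70%), 10 in DESeq2 (4.98%), 13 with only the groups compared (4.04%) and 9 with the replicate block, all lower, and 0 to 8 when 1 library was left out. DESeq2's size factors and a filter of at least 1 CPM in 3 libraries each gave 2, Bub1b and Kif11 (1.36% and 1.29%), and limma-voom 3 (1.17%). Cenpe was also not called with no filter or with only the groups compared. Over all 21 alternatives, including 1 chosen after the data were seen, Cenpe was called in 8, Bub1b in 14 and Kif11 in 13. With no filter the calls over all genes in either direction rose from 628 of 13261 to 1317 of 23092. With the replicate block the calls were Mcm2, Mcm3, Cdc45, Bub1, Bub1b, Aurkb, Top2a, Cenpe and Kif11, against 4.82% of all genes lower. The numbers did not pair ATEV with PBS (correlations -0.16, -0.02 and -0.07), and 6 of 12 libraries correlated best with their own number. For NTEV against DNase-ATEV, where all 3 correlations were above 0.1, the block left 0 members called and 41 of all genes in place of 90. For ATEV against DNase-ATEV the count of 0 became 1 with no scaling (Kif11; 0.173% of all genes lower) and 2 in DESeq2. For any difference among the 4 groups it became 1 with no scaling (Kif11; 3.18% of all genes), 6 in DESeq2 (11.7%), and 0 to 1 with 1 library left out. For NTEV against PBS it was 0 to 2 with 1 library left out.

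A setting chosen after the data were seen left out NTEV 1 and DNase-ATEV 1 together. It gave 17 members for ATEV against PBS (6.60% of all genes lower), 8 for NTEV against PBS (Mcm2, Mcm3, Mcm4, Mcm5, Mcm7, Cdc6, Tyms and Chek1; 6.58%) and 10 for any difference among the groups (12.2%). Since these libraries were picked for standing apart in these genes, and leaving them out narrows the spread by construction, none of the 3 counts is independent evidence of a difference. The cause of these moves was not tested. The medians of the replication and mitosis members kept their sign in the 3 comparisons with PBS under every alternative run. The replication median for ATEV against DNase-ATEV ran from -0.33 to 0.07 for ATEV against NTEV from -0.33 to 0.09 and for NTEV against DNase-ATEV from -0.25 to 0.25 with 1 library left out. No scaling moved the median of all genes to between -0.05 and 0.08. With 3 libraries per group and differences under 1 on the log2 scale, a member that missed the threshold is not shown to be unchanged.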
